A study of Mus musculus with 8 samples.

Results

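Spleens of lupus-prone Sle1.3 mice that lack 1 copy of the E2-2 gene were compared with spleens of Sle1.3 mice that keep both copies. The comparison took every array of these genotypes, 3 of Sle1.3/E2-2het and 3 of Sle1.3 mice, which are 6 of the 8 arrays of the series. The other 2 arrays are from wild-type (WT) mice and are given here only as a reference level. All mice were on the C57/B6 background, and the labels give no age. Sle1.3 mice are described in the labels as lupus mice, and Sle1.3/E2-2het mice as the same strain with one E2-2 allele missing. No Cre line or cell-restricted promoter is named, and the labels give no spleen weight or cell composition. Labelled sex was female for Sle1.3 replicates 1 and 2 and male for replicate 3. It was male for Sle1.3/E2-2het replicates 1 and 2 and female for replicate 3. Both WT mice were labelled male. Each spleen was dissociated with collagenase and DNase, RNA was taken from the same number of splenocytes of each mouse, and 250 ng was labelled for an Affymetrix Mouse Gene 1.0 ST array.

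E2-2, encoded by Tcf4, is a basic helix-loop-helix transcription factor of the E protein family. E proteins bind DNA as dimers at a short palindrome, the E-box, and Id proteins block this binding by forming dimers that cannot hold DNA. E2-2 is required for the development and maintained identity of plasmacytoid dendritic cells, which sense nucleic acids through endosomal Toll-like receptors and release type I interferon. The series title describes the plasmacytoid dendritic cells of the Sle1.3/E2-2het mice as not functioning. In lupus-prone mice the spleen also accumulates germinal centres, where B cells mutate their receptors with help from follicular T cells, and plasma cells that secrete autoantibody.

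The promoters of 6 genes that the comparison turns on are shown first, with each E-box in capitals, because the E-box is the site that E2-2 can bind. They were chosen after the values were seen. Each is the stretch of 250 bases before the RefSeq transcription start in GRCm38.p6, read in the direction of the gene. Gcsam, Rgs13, Fcgr4 and Pdcd1 were lower and Alas2 and Cd209a higher in Sle1.3/E2-2het spleens. The motif searched was CANNTG, which reads alike on both strands.
Gcsam, chr16:45610190-45610439, plus strand: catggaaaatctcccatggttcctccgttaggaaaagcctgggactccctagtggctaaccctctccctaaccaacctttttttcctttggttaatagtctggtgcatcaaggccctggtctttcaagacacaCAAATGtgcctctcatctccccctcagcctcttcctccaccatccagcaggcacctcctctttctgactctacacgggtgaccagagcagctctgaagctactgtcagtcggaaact
Rgs13, chr1:144177373-144177622, minus strand: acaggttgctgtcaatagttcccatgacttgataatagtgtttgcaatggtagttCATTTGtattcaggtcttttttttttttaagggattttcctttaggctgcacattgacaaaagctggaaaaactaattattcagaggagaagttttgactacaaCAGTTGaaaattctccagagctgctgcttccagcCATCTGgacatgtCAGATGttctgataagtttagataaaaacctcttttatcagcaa
Fcgr4, chr1:171018676-171018925, plus strand: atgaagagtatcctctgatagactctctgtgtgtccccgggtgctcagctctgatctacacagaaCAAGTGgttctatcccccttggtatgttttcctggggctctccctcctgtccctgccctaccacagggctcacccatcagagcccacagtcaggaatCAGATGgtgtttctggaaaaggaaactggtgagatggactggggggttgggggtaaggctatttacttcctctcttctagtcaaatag
Pdcd1, chr1:94052554-94052803, minus strand: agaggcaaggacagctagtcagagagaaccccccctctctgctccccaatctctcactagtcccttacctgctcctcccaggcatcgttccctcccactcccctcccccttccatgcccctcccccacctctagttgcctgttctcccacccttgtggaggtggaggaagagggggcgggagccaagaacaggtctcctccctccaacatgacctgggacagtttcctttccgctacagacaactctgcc
Alas2, chrX:150547167-150547416, plus strand: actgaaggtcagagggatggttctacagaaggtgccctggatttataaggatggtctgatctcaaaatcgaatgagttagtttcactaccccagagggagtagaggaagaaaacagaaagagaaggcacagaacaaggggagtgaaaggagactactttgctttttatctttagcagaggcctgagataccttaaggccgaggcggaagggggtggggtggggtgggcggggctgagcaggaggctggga
Cd209a, chr8:3748985-3749234, minus strand: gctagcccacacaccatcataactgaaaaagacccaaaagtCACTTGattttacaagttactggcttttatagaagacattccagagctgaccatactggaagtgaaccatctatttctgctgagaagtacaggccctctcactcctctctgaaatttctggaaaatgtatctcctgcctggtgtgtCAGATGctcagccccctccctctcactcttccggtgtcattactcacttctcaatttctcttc
Rgs13 held 4 E-boxes, Fcgr4 and Cd209a 2 each, Gcsam 1, and Pdcd1 and Alas2 0. Among all 11810 tested genes with a listed promoter, 59.6% held at least 1 E-box in a window of this length. The share was 61.7% of 183 promoters of genes lower in Sle1.3/E2-2het and 69.4% of 72 promoters of genes higher there. With the NN of the motif limited to GC, GG or CC, the shares were 26.2%, 24.0% and 27.8%, and none of the E-boxes shown has such a centre. A match is a description of the letters in this window and not a bound site.

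Array values are log2 of the deposited linear intensities, so a difference of 1.00 is a 2.00-fold change. Median log2 intensity was 5.83 to 5.95 in 6 arrays and 6.17 in both replicate 3 arrays, whose lowest intensities (10.9 and 11.2) also lay above those of the others (4.57 to 5.11). Replicates 1 and 2 are called the first array set and both replicate 3 arrays the second. Differences within the same replicate number, Sle1.3/E2-2het minus Sle1.3, are called pair 1, pair 2 and pair 3. The labels do not say what the numbers stand for or whether the mice were littermates, and 3 mice per genotype limit the precision.

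Xist, the X-inactivation transcript made in females, was 10.77, 10.68 and 11.90 in Sle1.3 replicates 1, 2 and 3 and 3.79, 4.29 and 11.82 in the Sle1.3/E2-2het arrays. The Y-linked gene Eif2s3y was 3.02, 3.33 and 3.83 in Sle1.3 and 8.03, 8.61 and 3.84 in Sle1.3/E2-2het. The array labelled Sle1.3 replicate 3 is labelled male, yet both genes read as in a female. Pairs 1 and 2 thus compared a male Sle1.3/E2-2het mouse with a female Sle1.3 mouse, and in pair 3 both mice read as female. In pairs 1 and 2 genotype and sex cannot be told apart, so the pair 3 value is given beside each gene said to have risen or fallen.

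Tcf4, the targeted gene, lies on chromosome 18. Its log2 intensity was 8.67, 8.63 and 9.06 in Sle1.3 mice, 8.18, 8.13 and 9.24 in Sle1.3/E2-2het mice, and 9.02 and 8.80 in WT mice. It was lower in the Sle1.3/E2-2het mouse of pairs 1 and 2 and higher in that of pair 3, and the groups overlapped. The difference was -0.27 (SE 0.30, n = 3 per genotype, limma adjusted p = 1.00), or adjusted p = 0.416 with the replicate number as a block. The pair differences were -0.49, -0.50 and 0.19. Tcf4 was below its Sle1.3 partner in 2 of 3 pairs, and whether the probes cover the deleted part of the gene is not given in the sources used here. Of 8 E protein and Id genes, 0 passed in either fit, against 2.22% of all tested genes with the block. Tcf3 and Tcf12, which encode the other E proteins, differed by -0.11 and -0.09. Id1, Id2, Id3 and Id4 differed by 0.14, 0.00, 0.12 and -0.10. Cbfa2t3, a corepressor that partners E2-2 in plasmacytoid dendritic cells, differed by 0.01 on the probe set used and by -0.15 on its other one.

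Genes were counted in 2 ways. A fit on the group alone passed 0 of 14953 genes in either direction (0.0%) at an adjusted p of 0.05 in limma, with a smallest adjusted p of 0.246 for Fcgr4. At an unadjusted p of 0.05 it counted 202 genes higher (1.35%) and 356 lower (2.38%). With the replicate number as a block, 103 genes were higher (0.689%) and 229 lower (1.53%), 332 in all (2.22%). In both fits the differences are equal and only their errors change, because mice of the same number deviated from their group means together. Of the 332 genes, 14 lie on X and 4 on Y. A change of at least 2.00-fold was seen in 35 of the higher and 33 of the lower genes. In 83 of the higher genes all Sle1.3/E2-2het arrays lay above all Sle1.3 arrays, against 455 of all tested genes (3.04%). In 150 of the lower genes all lay below, against 648 (4.33%). All 332 had the same sign in every pair, against 35.6% of all tested genes. The calls were made from the same values, so non-overlap or a shared sign is no separate support for them. "Rose" and "fell" below refer to an adjusted p under 0.05 with the replicate block. The group-only fit was the main fit of the design and no gene passed it, so every rise or fall below rests on an alternative fit. List counts are also given without each pair, with quantile normalization or median centring, or with the array set in place of the replicate number as the block, where they move by over 1.5 times. In the first array set alone, 0 members of any list described below passed other than Xist and 3 Y-linked genes. Quantile normalization gave 91 higher and 127 lower genes, so that 41.7% rather than 31.0% of calls were higher, and 196 of its calls were among the 332. Median centring, chosen after seeing the data, gave 57 and 171, of which 228 were among the 332. The median difference over all tested genes was 0.00.

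**Figure D1:**
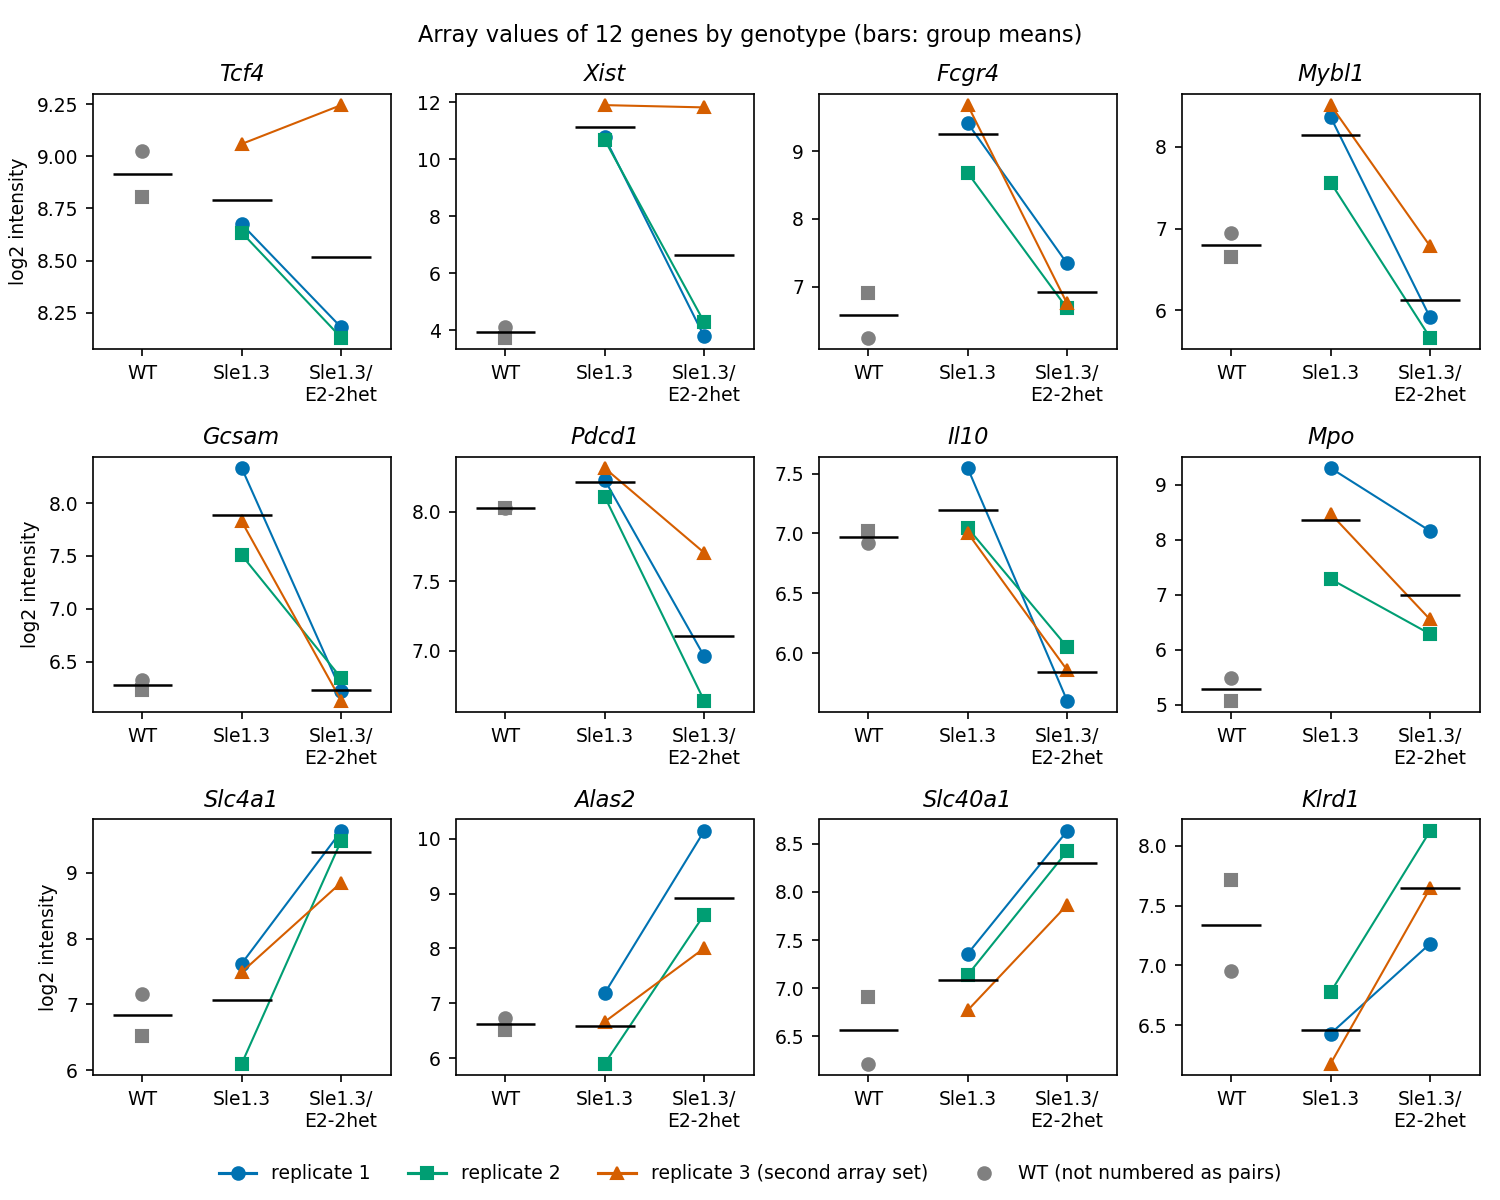
Log2 intensity (vertical axis, a separate scale in each panel) of 12 genes in WT, Sle1.3 and Sle1.3/E2-2het spleens. Points are arrays, lines join the same replicate number, and bars are group means. In Tcf4 and Xist pair 3 stands apart (differences 0.19 and -0.08), while Fcgr4, Mybl1, Gcsam, Pdcd1, Il10 and Mpo were lower and Slc4a1, Alas2, Slc40a1 and Klrd1 higher in the Sle1.3/E2-2het mouse of each pair.

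The second array set took no part in choosing genes from the first, except in the filter on mean intensity over all 8 arrays. In the first set alone, 40 autosomal genes were lower by at least 1.00 at an unadjusted p under 0.05, and all 40 were below 0 in pair 3, where both mice read as female. Their median was -1.16 in the first set and -0.60 in pair 3, and 48.9% of all 14543 autosomal genes were below 0 in pair 3. Another 39 were higher by at least 1.00, of which 38 (97.4%) were above 0 in pair 3, against 49.9% of all autosomal genes. Their medians were 1.28 and 0.58. Pair 3 is 1 mouse against 1, and genes can vary together, so these counts are over genes and not over independent replicates. What part sex or cell composition has in them was not tested. A test of whether the genotype difference itself differed between the array sets passed for 4 of all tested genes (0.0268%), Xist, Eif2s3y, Srsy and Uty, all sex-linked. Xist differed by -6.99 and -6.39 in pairs 1 and 2 and by -0.08 in pair 3, and the Y-linked genes Eif2s3y, Srsy, Uty and Kdm5d differed by 0.01 to 0.06 in pair 3. Xist fell by 4.49 and Eif2s3y, Srsy, Uty and Kdm5d rose by 3.44, 2.78, 2.48 and 1.62 on the group means, none of which passed with quantile normalization or median centring added to the block. Srsy has 19 probe sets, and it belongs to a family of near-identical copies that can share probes. It was 9.42 and 9.83 in Sle1.3/E2-2het replicates 1 and 2 and 7.11 and 6.57 in WT, so it also differed between mice labelled male. Eif2s3y, Uty and Kdm5d were instead higher in WT (Kdm5d 7.40 and 7.58, against 6.26 and 6.51 in Sle1.3/E2-2het replicates 1 and 2).

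**Figure D2:**
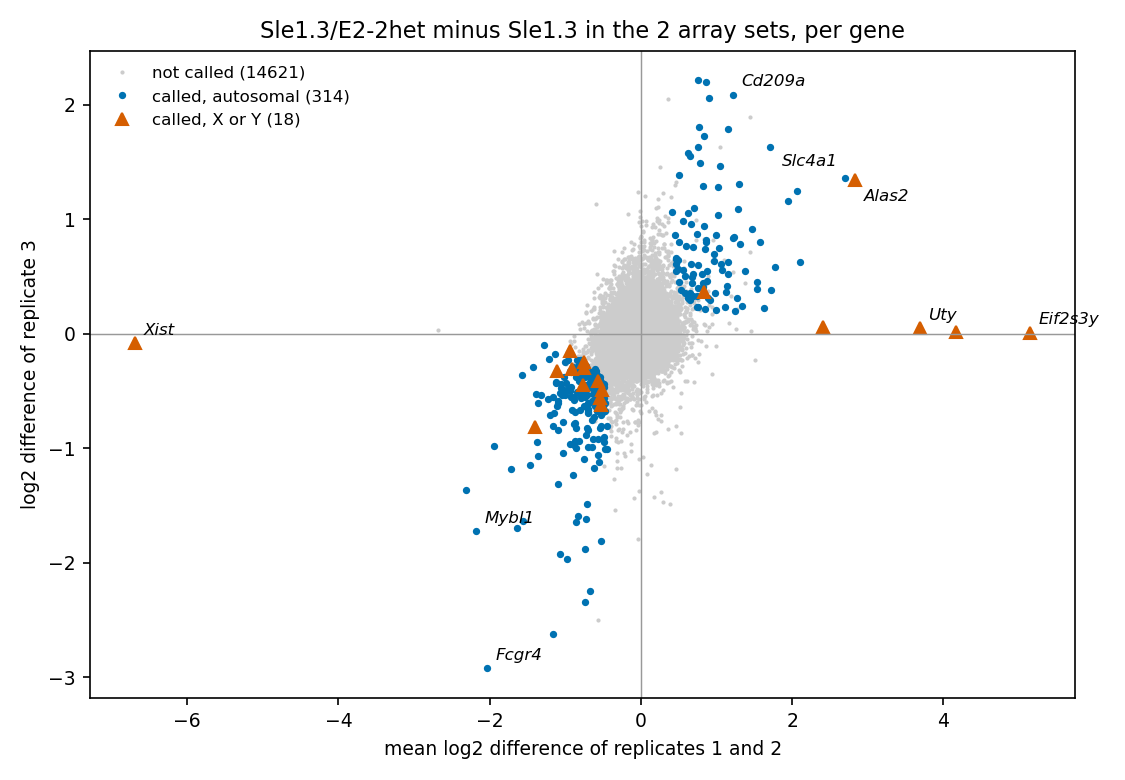
Log2 difference of Sle1.3/E2-2het minus Sle1.3 for each tested gene, as the mean of replicates 1 and 2 (horizontal axis) and in replicate 3 (vertical axis). Blue points and orange triangles passed with the replicate block, on autosomes and on X or Y. Xist, Uty and Eif2s3y lie near 0 on the vertical axis (-0.08, 0.05 and 0.01), whereas Fcgr4, Mybl1, Alas2, Slc4a1 and Cd209a differ in the same direction on both axes.

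Of 12 tested germinal centre B cell genes, 7 fell (1.53% of all genes fell) and 0 rose, with a list median of -0.62 and pair medians of -0.73, -0.51 and -0.42. Mybl1, which encodes a MYB-family factor abundant in germinal centre B cells, was 8.36, 7.56 and 8.51 in Sle1.3 and 5.91, 5.67 and 6.79 in Sle1.3/E2-2het, with 6.95 and 6.65 in WT. It fell by 2.02 (block SE 0.14, adjusted p = 0.000122), the groups did not overlap, and pair 3 gave -1.73. Gcsam, which encodes a signalling adaptor of germinal centre lymphocytes, was 8.33, 7.51 and 7.83 in Sle1.3, 6.22, 6.34 and 6.13 in Sle1.3/E2-2het, and 6.33 and 6.23 in WT. All Sle1.3/E2-2het values lay below all Sle1.3 values. It fell by 1.65 (block SE 0.16, adjusted p = 0.000784), with -1.70 in pair 3. Rgs13, a regulator of G protein signalling in germinal centre B cells, fell by 1.58 (adjusted p = 0.0112), and its pair differences were -2.53, -0.58 and -1.64. It did not pass without pair 3 (adjusted p = 0.0617) or with quantile normalization (0.0508). Bcl6, the master repressor of the germinal centre programme, had means of 7.76 in WT and 7.68 in Sle1.3 and fell by 0.58 (pair 3 -0.37). Basp1 fell by 0.65 (-0.73), Neil1 by 0.62 (-0.29) and Nuggc, also named for germinal centre expression, by 0.62 (-0.64). S1pr2, which confines cells to the follicle, and Fas differed by -0.24 and -0.65 and did not pass. Basp1 did not pass without pair 1 (adjusted p = 0.0638), without pair 3 (0.0521) or with quantile normalization (0.0571). The count of lower members was 3 without pair 1, 8 without pair 2, 4 without pair 3, 3 with quantile normalization and 2 with the array set as the block. Of 14 general B cell genes 0 passed, with a median of -0.11, and Cd79a, a B cell receptor chain, differed by 0.03.

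Among 15 tested genes of follicular helper and activated T cells, 8 fell (1.53% of all genes fell) and 0 rose. All 15 were below 0, and the median was -0.56 (pair medians -0.86, -0.65 and -0.35). Pdcd1, which encodes the inhibitory receptor PD-1, was 8.23, 8.11 and 8.31 in Sle1.3 and 6.96, 6.64 and 7.71 in Sle1.3/E2-2het. The groups did not overlap, and it fell by 1.11 (block SE 0.15, adjusted p = 0.00555), with -0.61 in pair 3. Tox, a transcription factor of chronically stimulated T cells, was 8.35, 8.33 and 8.66 against 7.16, 7.20 and 8.11 and fell by 0.96 (adjusted p = 0.00644), with -0.55 in pair 3. The inhibitory receptors Tigit and Ctla4 both fell by 0.88 (pair 3 -0.52 and -0.53). Tox2 fell by 0.79 (-0.50), the folate receptor Izumo1r by 0.69 (-0.41) and the transcription factor Maf by 0.56 (-0.39). The costimulatory receptor Tnfrsf4 fell by 0.81, with pair differences of -0.95, -1.32 and -0.18. In each of these 8 genes the difference was smaller in pair 3 than in pairs 1 and 2. The WT mean was 8.949 for Tigit and 8.905 for Tnfrsf4, above their Sle1.3 means of 8.867 and 8.721. For Pdcd1, Tox, Ctla4, Tox2 and Izumo1r the WT mean was 8.028, 7.861, 9.078, 6.866 and 7.291. Their Sle1.3 means were higher, at 8.215, 8.447, 9.714, 7.346 and 7.874. Cxcr5, which draws these cells into follicles, differed by -0.15 and Icos by -0.11, and neither passed. The count was 4 without pair 1, 9 without pair 2 or without pair 3, and 3 with the array set as the block. Of 15 general T cell genes, 1 fell (Zap70, a kinase of T cell receptor signalling, by 0.93, pair 3 -0.59) and the median was -0.08. Without pair 2, 4 of them were higher and 1 lower, and without pair 1 or pair 3, 2 or 3 were lower. With quantile normalization 1 was higher and 1 lower. With the array set as the block 0 passed, and the median ran from -0.22 without pair 3 to 0.11 without pair 2. Cd3e differed by -0.54, -0.97 and 0.05 in the 3 pairs.

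Il10, Sostdc1, Tnfsf8 and Itgb8 were among the 12 genes with the largest falls. Il10, an anti-inflammatory cytokine gene, was 7.54, 7.05 and 7.0 in Sle1.3, 5.60, 6.05 and 5.86 in Sle1.3/E2-2het, and 6.92 and 7.02 in WT. Every Sle1.3/E2-2het value was below every Sle1.3 and WT value, and Il10 fell by 1.36 (block SE 0.16, adjusted p = 0.0025), with -1.14 in pair 3. It was the 1 member that fell (1.53% of all genes fell) among 20 cytokine and chemokine genes, whose median was -0.01. Without pair 2, 4 of these were lower, without pair 3, 2, and without pair 1, 1 was lower and 1 higher. Sostdc1, a secreted antagonist of BMP and Wnt signalling, was 8.25, 7.76 and 8.35 against 5.67, 5.72 and 6.98 and fell by 2.00 (adjusted p = 0.000665), with -1.36 in pair 3. Tnfsf8, which encodes CD30 ligand, was 7.94, 8.0 and 7.94 against 5.90, 6.15 and 6.96 and fell by 1.62 (adjusted p = 0.00159), with -0.98 in pair 3. Itgb8, an integrin subunit that activates TGF-beta, fell by 1.54 (adjusted p = 0.000649), with -1.18 in pair 3. In these genes too no Sle1.3/E2-2het array reached the Sle1.3 range. Among 7 regulatory T cell genes, 3 fell, namely Il10, Ctla4 and Ikzf2 (by 0.66, pair 3 -0.38), while their defining factor Foxp3 differed by -0.17 (adjusted p = 0.525). Ikzf2 did not pass without pair 1 (adjusted p = 0.0895), and Ctla4 is also in the follicular helper list. The count was 2 without pair 1 and 1 with the array set as the block.

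Plasma cell and secretory pathway genes fell in part. Of 14 plasma cell genes, 5 fell and 1 rose, where 1.53% of all genes fell and 0.689% rose. The list median was -0.49, with pair medians of -0.54, -0.58 and -0.11. Mzb1, a chaperone for immunoglobulin assembly, was 10.15, 9.96 and 9.98 in Sle1.3 and 8.93, 8.93 and 9.55 in Sle1.3/E2-2het and fell by 0.90 (adjusted p = 0.0112), with -0.43 in pair 3. Xbp1, the transcription factor that expands the secretory apparatus, was 10.52, 10.32 and 10.92 against 9.74, 9.20 and 10.44 and fell by 0.79 (adjusted p = 0.013), with -0.47 in pair 3. Its groups overlapped, since pair 3 of Sle1.3/E2-2het lay above Sle1.3 replicate 2. Creld2 fell by 1.16, with pair differences of -1.61, -1.51 and -0.36, so that pair 3 was the smallest. Eaf2 fell by 0.68 (pair 3 -0.35) and Txndc5 by 0.52 (-0.35). Tnfrsf17, the BCMA receptor of long-lived plasma cells, rose by 0.53 (pair 3 0.65). With median centring, without pair 1 and without pair 3, 0 plasma cell genes were higher. The plasma cell marker Sdc1 (-0.11), the joining chain gene Jchain (0.11) and the regulator Prdm1 (-0.47) did not pass. Of 20 genes of ER stress and protein secretion, which share Creld2 with this list, 5 fell and 0 rose, with a median of -0.41. Besides Creld2 these were the chaperone Hsp90b1 (by 0.72, pair 3 -0.56), the chaperone cofactor Sdf2l1 (by 0.80, pair 3 -0.43), and Edem1 (by 0.68, pair 3 -0.48) and Sel1l (by 0.63, pair 3 -0.35), which act in the degradation of misfolded proteins. Without pair 1, Eaf2 and Hsp90b1 did not pass (adjusted p = 0.12 and 0.163). Without pair 1 the counts of lower genes were 3 and 3, and without pair 2 or pair 3 they were 6 and 7 for plasma cells and 8 and 7 for secretion. With the array set as the block both counts were 0.

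Cell cycle genes fell in part. Of 31 tested, 9 fell (1.53% of all genes fell) and 0 rose. The median was -0.40, with pair medians of -0.42, -0.21 and -0.45. Top2a, the topoisomerase of dividing cells, was 9.14, 8.67 and 9.33 in Sle1.3 and 8.28, 8.03 and 8.23 in Sle1.3/E2-2het. It fell by 0.86 (block SE 0.12, adjusted p = 0.00555), with -1.09 in pair 3. Plk1, a mitotic kinase, was 7.57, 6.78 and 7.29 against 6.58, 6.05 and 6.47 and fell by 0.84 (adjusted p = 0.00494), with -0.82 in pair 3. The spindle motors Kif11 and Cenpe fell by 0.97 and 0.90 (pair 3 -1.48 and -0.996), the kinase Aurkb by 0.75 (-0.84) and the proliferation marker Mki67 by 0.63 (-0.91). No Sle1.3/E2-2het value of Top2a or Plk1 reached the lowest Sle1.3 value. The count was 4 with quantile normalization, 5 without pair 1 or without pair 3, 13 without pair 2 and 0 with the array set as the block.

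In the myeloid lineages, the Fc receptor gene Fcgr4 and 4 primary granule genes fell. For the list counts that follow, 1.53% of all tested genes fell and 0.689% rose. Fcgr4 encodes an activating receptor for IgG on monocytes and macrophages. Its level was 9.41, 8.68 and 9.68 in Sle1.3, 7.34, 6.68 and 6.75 in Sle1.3/E2-2het, and 6.25 and 6.91 in WT. No array of one genotype reached the range of the other. It fell by 2.33, or 5.03-fold (block SE 0.17, adjusted p = 0.000122), with -2.92 in pair 3, and it lies on chromosome 1, where the Sle1 interval is. Of 16 tested genes of the Sle1 region 2 fell, Fcgr4 and the lymphocyte receptor Slamf1 (by 0.64, pair 3 -0.37), which did not pass without pair 1 (adjusted p = 0.269) or with median centring (0.0522). The count was 1 with the array set as the block or with quantile normalization, and 3 without pair 2 or without pair 3. Of 13 monocyte genes, 3 fell (Fcgr4, Cd300e by 1.12, pair 3 -1.65, and Ms4a6d by 1.02, pair 3 -1.62) and 1 rose (Treml4 by 0.54, pair 3 0.34), with a median of -0.10. Ms4a6d did not pass without pair 3 (adjusted p = 0.107), and Treml4 did not pass without pair 1 (0.29) or with median centring (0.0672). With the array set as the block 1 monocyte gene, Fcgr4, was lower. Mpo, the myeloperoxidase of primary granules, was 9.31, 7.29 and 8.48 in Sle1.3, 8.16, 6.29 and 6.55 in Sle1.3/E2-2het, and 5.48 and 5.08 in WT. The groups overlapped, since the pairs differ in level, but it was lower in all 3 pairs and fell by 1.35 (adjusted p = 0.0025), with -1.92 in pair 3. The serine proteases of the same granules, Ctsg, Elane and Prtn3, fell by 1.19, 1.12 and 1.08, with -2.25, -1.88 and -1.60 in pair 3. With quantile normalization Ctsg and Elane did not pass (adjusted p = 0.137 and 0.0904). These 4 were the only members called lower among 19 neutrophil genes, and 0 rose. Of the 19, 16 were below 0 and 3 above. The largest difference above 0 lay in size between the falls of Ctsg and Mpo, but did not pass. In 1 member all Sle1.3/E2-2het arrays lay above all Sle1.3 arrays. The pair medians of the list were -0.18, 0.02 and -1.19. Pair 3 thus stood apart for the list, and without pair 2, 14 members were lower and 1 higher, and with the array set as the block 0 passed. Without pair 1, 6 members were lower and 1 higher. Camp and Ltf, of the later granules, differed by -1.37 and -1.43 in pair 3 and by -0.14 to 0.02 in the others. Ear6, an eosinophil-type ribonuclease with close relatives that may share its probes, fell by 1.65, with -2.62 in pair 3. Adamdec1, a metalloprotease of macrophages and dendritic cells, fell by 1.31, with -1.97 in pair 3. The platelet genes Ppbp and Tubb1 fell by 1.01 and 0.71 (pair 3 -0.84 and -0.53), 2 of 10 tested, and 0 with the array set as the block.

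**Figure D3:**
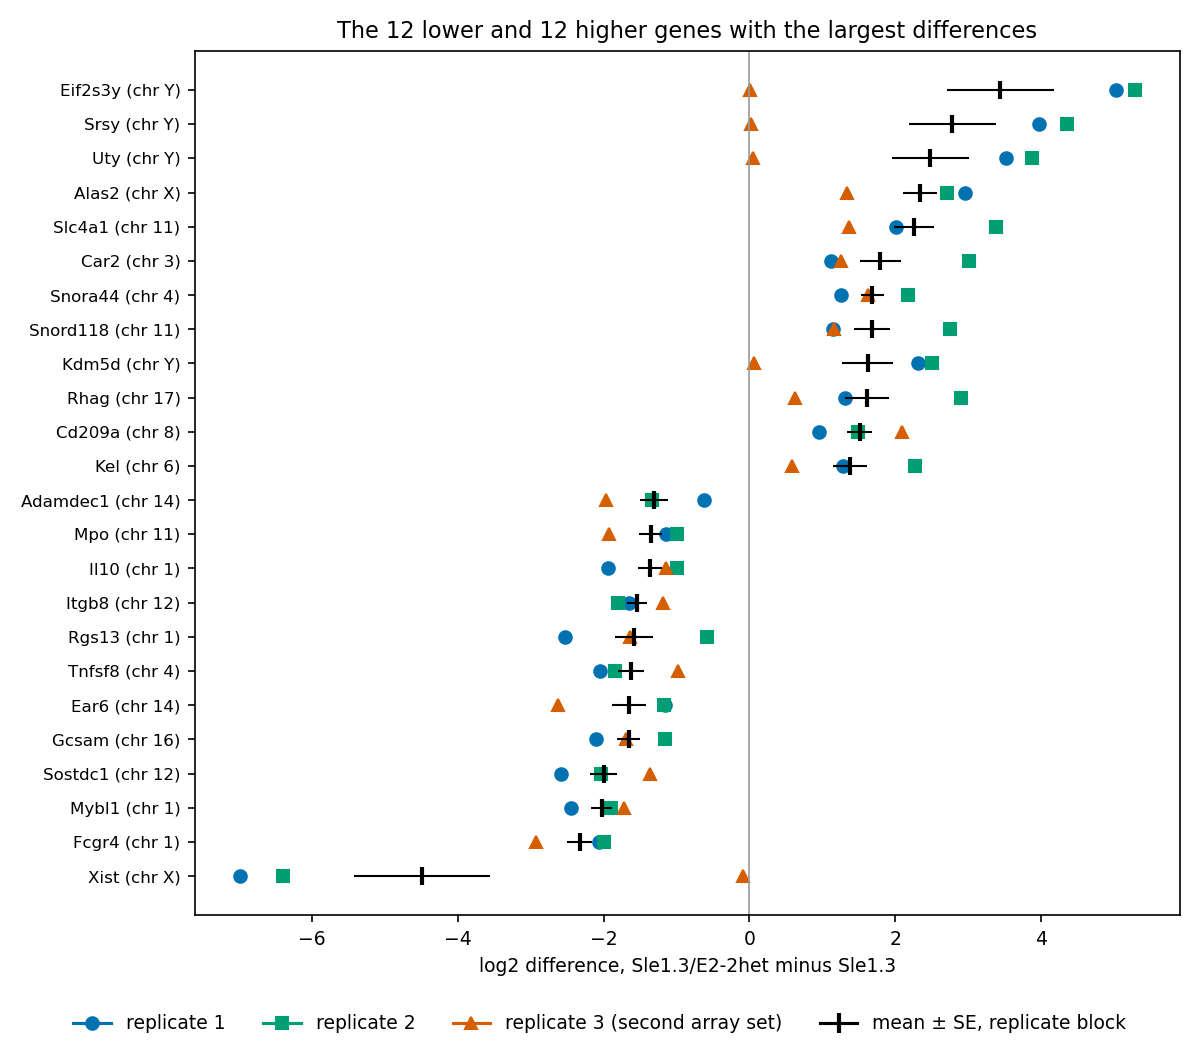
Log2 difference of Sle1.3/E2-2het minus Sle1.3 (horizontal axis) for the 12 lower and 12 higher genes with the largest differences among those past the threshold with the replicate block. Symbols are the same-number differences, and the black bar is their mean ± SE. Xist and the Y-linked genes have a pair 3 difference near 0, whereas Fcgr4 (-2.92) and Cd209a (2.09) each differ most in pair 3.

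Of 20 tested erythroid genes 13 rose (0.689% of all genes rose), 0 fell and all 20 were above 0, with a median of 0.86 and pair medians of 0.96, 1.3 and 0.36. Alas2, the X-linked first enzyme of haem synthesis in red cell precursors, was 7.18, 5.90 and 6.66 in Sle1.3, 10.14, 8.61 and 8.0 in Sle1.3/E2-2het, and 6.74 and 6.50 in WT. All Sle1.3/E2-2het arrays lay above all Sle1.3 and WT arrays. It rose by 2.34, or 5.05-fold (block SE 0.24, adjusted p = 0.000957), and by 1.34 in pair 3. Slc4a1, the band 3 anion exchanger of the red cell membrane, was 7.62, 6.10 and 7.49 against 9.63, 9.48 and 8.85 and rose by 2.25 (adjusted p = 0.0025), with 1.36 in pair 3 and again no overlap. The carbonic anhydrases Car2 and Car1 rose by 1.79 and 1.28 (pair 3 1.25 and 0.91), the Rh-associated glycoprotein Rhag by 1.61 (0.62) and the Kell antigen gene Kel by 1.38 (0.58). Ferrochelatase (Fech) rose by 1.18 (pair 3 0.46), the membrane skeleton gene Epb42 by 0.97 (0.24) and the transferrin receptor Tfrc by 0.57 (0.33). The regulators Klf1 (0.39), Epor (0.41) and Gata1 (0.18) did not pass. The count was 8 with quantile normalization or median centring and 11, 14 and 14 without pairs 1, 2 and 3. With the array set as the block it was 0. How much of each spleen suspension was red cells is not recorded in the labels, and its part in the falls above was not tested. In bulk tissue, fewer cells of a type and less RNA per cell cannot be told apart.

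Natural killer cell genes rose in 6 of 14 tested members (0.689% of all genes rose) and fell in 0. The median was 0.50, with pair medians of 0.40, 0.23 and 0.82. Klrd1, the CD94 chain of killer lectin receptors, was 6.43, 6.78 and 6.18 in Sle1.3, 7.18, 8.12 and 7.64 in Sle1.3/E2-2het, and 6.96 and 7.71 in WT. The groups did not overlap, and it rose by 1.18 (block SE 0.14, adjusted p = 0.0025), with 1.46 in pair 3. Ncr1, which encodes the activating receptor NKp46, was 5.30, 5.66 and 5.61 against 5.77, 6.99 and 7.67. It rose by 1.28 (adjusted p = 0.0147) and by 2.06 in pair 3, with adjusted p = 0.0543 without pair 3 and 0.0625 with quantile normalization. The granzyme genes Gzma and Gzmb rose by 1.11 and 0.94 (pair 3 1.80 and 1.58), Klrb1c, which encodes NK1.1, by 0.84 (0.80), and Klrk1, which encodes NKG2D, by 0.63 (1.06). The transcription factors Eomes and Tbx21 (0.09 and -0.17) and the receptor chain Il2rb (0.14) did not pass. The count was 9 without pair 2, 3 without pair 3, 4 with quantile normalization or median centring, and 0 with the array set as the block.

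Among 16 genes of splenic macrophages, which recycle the iron of aged red cells, 4 rose (0.689% of all genes rose) and 0 fell. The median was 0.31, with pair medians of 0.46, 0.24 and 0.16. Slc40a1, the iron exporter ferroportin, was 7.36, 7.14 and 6.77 in Sle1.3 and 8.63, 8.42 and 7.86 in Sle1.3/E2-2het. It rose by 1.22 (block SE 0.11, adjusted p = 0.000665), and its pair differences were close to each other at 1.27, 1.28 and 1.09. Vcam1, the adhesion molecule of red pulp macrophages, rose by 1.09 (pair 3 0.83), haem oxygenase 1 (Hmox1) by 0.98 (1.29) and Spic, the transcription factor of red pulp macrophages, by 0.91 (0.61). In Slc40a1 no Sle1.3/E2-2het array overlapped the Sle1.3 range. Hmox1 did not pass without pair 3 (adjusted p = 0.0922). Without pair 2 the count was 6, and with the array set as the block it was 1.

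Of the dendritic cell genes in the lists used here, 1 passed. Of 16 plasmacytoid dendritic cell genes, 0 passed (1.53% of all tested genes fell and 0.689% rose), and the median was -0.18, with pair medians of -0.16, -0.22 and -0.08. Siglech, the surface lectin that marks these cells in mice, was 6.17, 6.10 and 6.44 in Sle1.3 and 6.33, 6.25 and 6.71 in Sle1.3/E2-2het, and it differed by 0.19 (adjusted p = 0.447). It was not lower in any pair. The chemokine receptor gene Ccr9 differed by 0.30, Cox6a2 by 0.09 and Pacsin1 by -0.17. Of the 16 genes, however, 12 were below 0 and 4 above. Irf8 differed by -0.38 (adjusted p = 0.15), with pair differences of -0.56, -0.45 and -0.14. Pld4, an endolysosomal nuclease gene also used by B cells, differed by -0.56 (adjusted p = 0.0633) and Irf7, the inducer of type I interferon, by -0.55 (adjusted p = 0.101). Without pair 1, 2 members were lower, and without pair 2, 1 was higher. Among 13 conventional dendritic cell genes 1 rose. This was Cd209a, a DC-SIGN homologue of monocyte-derived and conventional dendritic cells, which was 7.28, 6.96 and 6.34 in Sle1.3, 8.24, 8.45 and 8.43 in Sle1.3/E2-2het, and 8.26 and 8.72 in WT. It rose by 1.51 (block SE 0.17, adjusted p = 0.00233), with the largest difference, 2.09, in pair 3, and the groups did not overlap. Without pair 2, 1 conventional dendritic cell gene was higher and 1 lower.

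Interferon-stimulated genes, the readout most often tied to plasmacytoid dendritic cells in lupus, gave 1 called gene. Of 26 tested, 1 fell (1.53% of all genes fell) and 0 rose. In this list 22 were below 0, and the median was -0.30, with pair medians of -0.16, -0.22 and -0.29. Parp14 was 8.20, 8.30 and 8.43 in Sle1.3 and 7.67, 7.73 and 7.83 in Sle1.3/E2-2het and fell by 0.56 (adjusted p = 0.0226), with no overlap and -0.60 in pair 3. It did not pass with quantile normalization (adjusted p = 0.0707), without pair 1 (0.0936) or without pair 3 (0.067). Ifit1, an RNA-binding antiviral protein, differed by -0.48 (adjusted p = 0.0666) and Xaf1 by -0.44 (adjusted p = 0.0705). Without pair 2, 2 members were lower and 1 higher, without pair 3, 1 was lower and 1 higher, and with quantile normalization or the array set as the block 0 passed. Rsad2, which encodes viperin, went the other way, with 0.93 (adjusted p = 0.114) and pair differences of 1.49, 1.52 and -0.23.

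**Figure D4:**
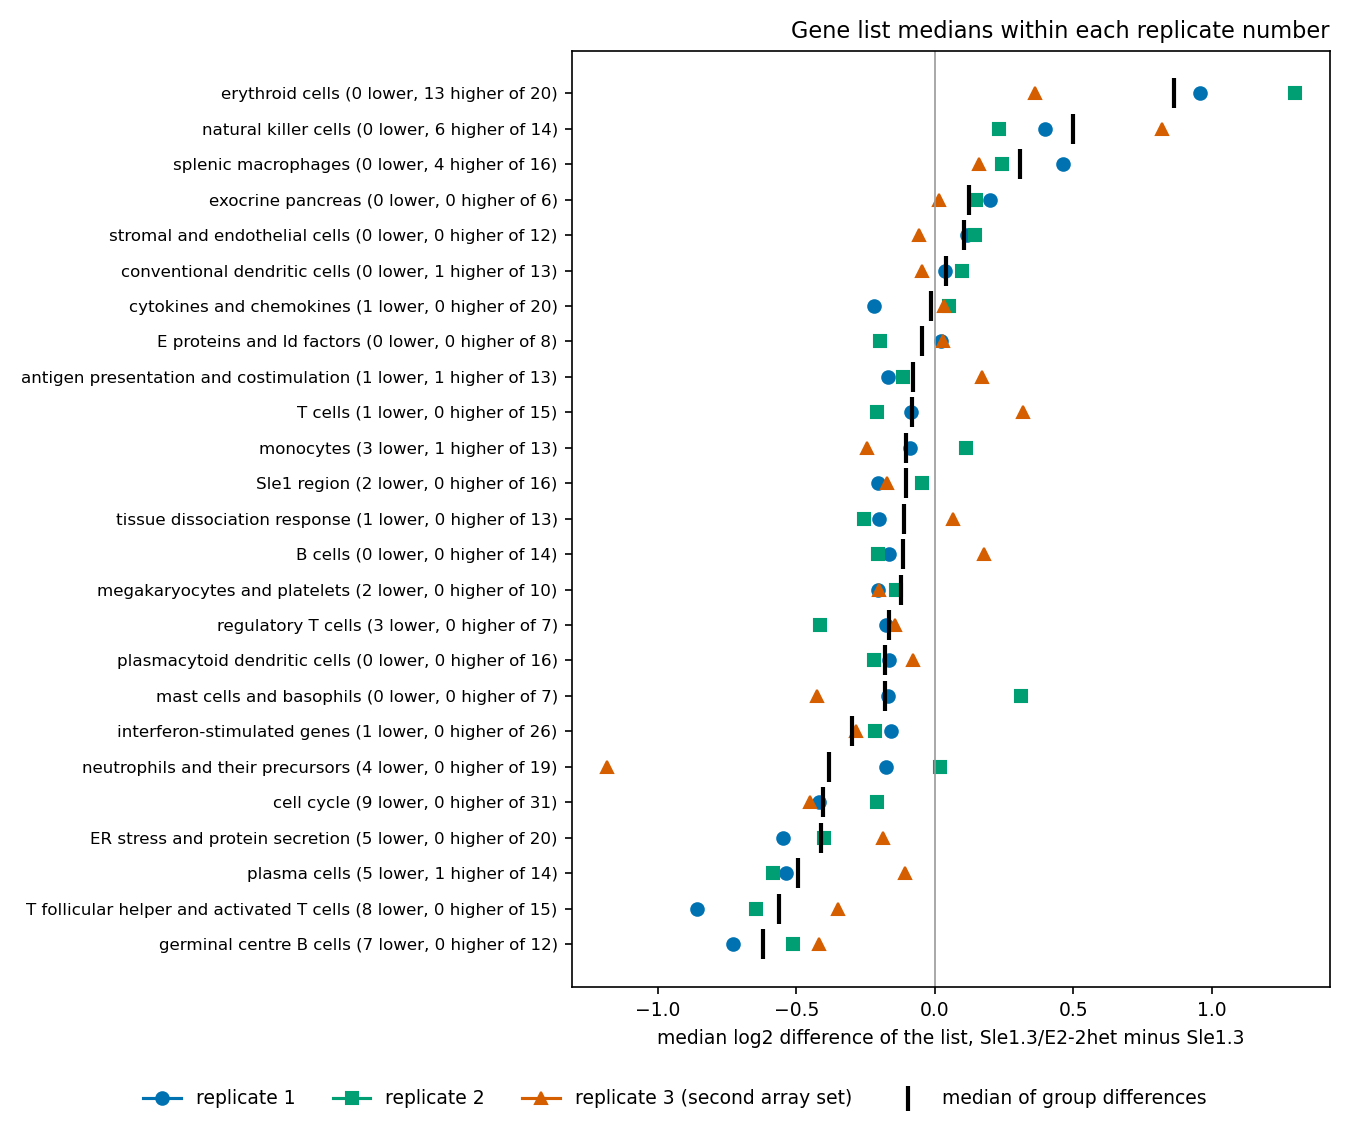
Median log2 difference of Sle1.3/E2-2het minus Sle1.3 (horizontal axis) for each gene list within replicate numbers 1, 2 and 3 (symbols) and over the group differences (black bar), with counts of genes past the threshold with the replicate block. The germinal centre, follicular helper, plasma cell, secretion and cell cycle medians are below 0 and the erythroid, natural killer and splenic macrophage medians above 0 in all 3 pairs, while the neutrophil median lies far below 0 in replicate 3 alone.

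Called genes also lay in the lists of antigen presentation and of the response to tissue handling. Of all tested genes 1.53% fell and 0.689% rose. Of 13 antigen presentation and costimulation genes, 1 fell (Ciita, the transactivator of MHC class II, by 0.61, pair 3 -0.67) and 1 rose (Cd86, a costimulatory ligand, by 0.70, pair 3 0.99), with a median of -0.08. Neither passed without pair 3 (adjusted p = 0.055 and 0.0613), and with the array set as the block 0 members passed. Without pair 1, 0 members were lower and 1 higher. Of 13 genes of the response to tissue dissociation, 1 fell (Jun, by 0.86, pair 3 -0.48), with a median of -0.11. The count was 2 without pair 3 and 0 with the array set as the block. In the exocrine pancreas (6 tested), stromal (12) and mast cell (7) lists 0 genes passed, with medians of 0.12, 0.10 and -0.18. Without pair 2, 3 mast cell and basophil genes and 1 stromal gene (Dcn) were lower, and without pair 1, 1 mast cell and basophil gene. Mcpt8, a basophil protease, differed by -1.22 (adjusted p = 0.103), with pair differences of -1.28, 0.13 and -2.50.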

How the data were processed

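Splenocyte RNA of 8 mice (2 WT, 3 Sle1.3, 3 Sle1.3/E2-2het) was measured, and the 6 arrays of the Sle1.3 genotypes were compared. The authors deposited linear intensities of 35556 probe sets. The submitters' processing notes name RMA and the Affymetrix Expression Console, without versions. No detection calls came with the table. The linear range was checked on the values (lowest 4.57, highest 20352), and log2 was then taken. Of the probe sets, 21789 had a single gene symbol, 1621 several and 12146 none. For each of 19938 genes the probe set of highest mean stood for the gene, and those above the 25th percentile (5.01) of mean log2 intensity were tested. Promoters and chromosomes came from RefSeq (GRCm38.p6). The build behind the array design is not given in the sources used here.

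The 6 arrays were fitted in limma 3.58.1 under R 4.3.3 (lmFit, eBayes, two-sided), with Benjamini-Hochberg adjustment over 14953 genes. The group-only fit has 4 residual degrees of freedom and the replicate-block fit 2. To these eBayes added 5.08 and 9.28 prior degrees of freedom, estimated over all tested genes. The pairing comes from the data: deviations from the group means correlated over genes at 0.573, 0.369 and 0.618 for equal numbers, and at 0.119 or less for unequal ones. Deviations from a group mean offset each other, so these correlations depend on each other, and the shared array set enters those of replicate 3. They come from the values that were then fitted and do not show independently that equal numbers are true pairs. The labels do not say that the mice were independent litters, so p-values of the group-only fit measure the spread between these samples. Those of the replicate block measure the spread of the pair differences and leave out the spread between replicate numbers. The fits were also run on simulated data, and the outcome is not used here. The simulation gave each gene the replicate effects of the data and independent noise, so it does not test the pairing or the effect of correlated genes.

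Named genes were up to 12 per direction by size among called genes, up to 4 per list by block p, and Tcf4 with its family and sex-linked genes. Other genes were named after their values were seen. The members and the 26 lists were chosen with earlier results of these data known. Alternatives covered scaling, filter, probe set choice, blocks and left-out replicates.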

Additional observations from a re-analysis of the deposited data

Results flagged for a closer look

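The genotype difference itself was tested for a change between the array sets, as an interaction of genotype with array set in limma. It passed for 4 of 14953 genes (0.0268%), and 443 had an unadjusted p under 0.05. All 4 are sex-linked. Xist differed by 6.60 more in replicate 3 than in replicates 1 and 2 (adjusted p = 0.0045). The Y-linked genes Eif2s3y, Srsy and Uty differed by -5.14, -4.14 and -3.65 (adjusted p = 0.021, 0.021 and 0.0232). Kdm5d, also on Y, differed by -2.35 (adjusted p = 0.115). Sle1.3 replicate 3 is labelled male and read as female. No autosomal gene passed this test, which rests on 1 pair against 2.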

How the results depend on the processing

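The counts depend on the fit. The group-only fit gave 0 genes in either direction, and so did it with median centring, quantile normalization, no or a stricter filter, the mean of probe sets, an intensity trend, or labelled sex over 8 arrays. All 8 arrays with group only gave 2 lower genes (Fcgr4 and Gcsam). The replicate block gave 103 higher and 229 lower, the array set as a block 6 and 30, and the first array set alone 4 and 5. All 36 and all 9 of these were among the 332. With the replicate block, quantile normalization gave 91 and 127, no filter on low values 76 and 178, and median centring, added after seeing the data, 57 and 171. Leaving out pair 1 gave 124 and 115, pair 2 gave 230 and 332, and pair 3 gave 106 and 194. Of these, 172, 283 and 216 were among the 332. Leaving out 1 array of the group-only fit gave 0 to 6 higher and 0 to 10 lower, the most without Sle1.3/E2-2het replicate 3. The cause was not tested. Of 66 named genes called with the block, 51 passed with quantile normalization, 57 with median centring, and 57, 66 and 58 without pairs 1, 2 and 3.

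Directions reversed for 10 named genes, none of which passed with all 6 arrays; Dcn passed without pair 2 (-0.54, adjusted p = 0.0199). With 1 array left out, Id1 ranged from -0.0273 to 0.42, Tcf3 from -0.26 to 0.0748, Id4 from -0.58 to 0.36, Tcf12 from -0.28 to 0.045, Cbfa2t3 from -0.17 to 0.29, Id2 from -0.22 to 0.21, Dcn from -0.63 to 0.0405, Cela3b from -0.0051 to 0.28, H2-Ab1 from -0.37 to 0.0083 and Ddx3x from -0.0619 to 0.34. Without pair 1, Id1 was -0.0011, Dcn 0.0172 and Cbfa2t3 -0.0038. Without pair 2, Tcf12 was 0.0322 and Cbfa2t3 -0.115. Id2 was -0.0872 in the first array set and without pair 3, and -0.0342 with median centring, with or without the block. Cbfa2t3 was -0.0251 with median centring in both fits, -0.0714 as the mean of its probe sets and -0.0594 with labelled sex over 8 arrays.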

Other observations

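Small nucleolar RNA genes, which guide chemical modification of ribosomal and spliceosomal RNA, stood mostly above 0 in Sle1.3/E2-2het minus Sle1.3. The group was chosen after its values were seen. Of 48 tested, 44 were above 0, 9 rose (0.689% of all genes rose) and 0 fell with the replicate block, and the median was 0.37. The pair medians were -0.02, 0.89 and 0.38, and that of pair 1 was thus near 0. Snora44 was 9.24, 9.32 and 9.83 in Sle1.3 and 10.49, 11.49 and 11.46 in Sle1.3/E2-2het and rose by 1.68 (adjusted p = 0.000665), with 1.63 in pair 3. Snord118, the U8 RNA, rose by 1.68 (adjusted p = 0.00704, pair 3 1.16), and its 2 probe sets gave the same value. MicroRNA genes had a median of 0.11, with 96 of 119 above 0 and 0 called. RNA size selection and integrity were not recorded in the labels, and their part was not tested.

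Other called genes, with the same direction in all 3 pairs, were named after their values were seen. Havcr1, which encodes TIM-1, a receptor of regulatory B cells and activated T cells, was 7.06, 6.92 and 7.26 in Sle1.3 and 5.52, 5.74 and 6.19 in Sle1.3/E2-2het and fell by 1.26 (adjusted p = 0.00079), with -1.07 in pair 3. The semaphorin receptor Nrp1 fell by 1.17, the opioid precursor Penk by 1.05 and the chemokine receptor Ccr8 by 0.95, with pair 3 differences of -1.31, -0.81 and -0.63. Prg2, the major basic protein of eosinophils, fell by 1.27, with -2.34 in pair 3. Il1a, an inflammatory cytokine, was 6.42, 5.67 and 5.67 against 7.45, 7.25 and 6.98 and rose by 1.3 (adjusted p = 0.00079), with 1.31 in pair 3. Mrc1, the mannose receptor of macrophages, rose by 0.98 (pair 3 0.63) and Trf, which encodes transferrin, by 0.95 (0.86). Il12rb2, a chain of the interleukin-12 receptor, and the killer receptor gene Klrc1 rose by 1.05 and 1.02, with 1.63 and 1.49 in pair 3.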
